A study of Mus musculus with 5 samples.

Results

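Peritoneal cells of mice labelled Irf8KO and given pristane were compared with those of wild-type (WT) mice given pristane, over all genes that reached 1 FPKM in any of the 4 libraries. FPKM is a level per transcript length and per sequencing depth. The table listed 22815 gene symbols, and 10431 of them met this rule: the highest of the 4 values was 1.0000 FPKM for the last gene inside and 0.9999 FPKM for the first outside. The groups were 2 libraries of C57BL/6 mice given pristane and 2 libraries of mice labelled Irf8KO given pristane, with 1 library of C57BL/6 mice given phosphate-buffered saline (PBS) as the untreated background. All mice were 8 weeks old, and RNA of cells washed from the peritoneal cavity was sequenced by a low-input Smart-seq2 protocol. The allele and strain background of the mice labelled Irf8KO, the time after pristane, the sex of the mice and whether replicates came from separate animals are not stated in the labels used here. P-values therefore measured only the spread between these libraries.

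Pristane is a hydrocarbon oil that causes lasting sterile inflammation when injected into the mouse peritoneum. In the resting cavity large macrophages that depend on the transcription factor Gata6 live beside B cells, and after an irritant these macrophages disappear from the fluid while neutrophils and monocytes enter from the blood. Irf8 is a transcription factor that directs bone marrow progenitors towards monocytes and dendritic cells. In its absence progenitors make more granulocytes, and the dendritic cells that cross-present antigen are missing. Irf8 also binds, with partners such as PU.1 and other interferon regulatory factors, to promoters of interferon-stimulated and antigen presentation genes.

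Irf8 RNA itself was 63.3 and 48.7 FPKM in WT after pristane and 121 and 59.4 FPKM in the Irf8KO-labelled libraries, against 32.4 FPKM after PBS. The groups overlapped, and the difference of the mean log2(FPKM + 1) values, Irf8KO minus WT, was 0.60 with a standard error (SE) of 0.41 (95% interval -0.53 to 1.73, limma, adjusted p = 0.471). Without the first Irf8KO-labelled library the difference was 0.09, and without the second it was 1.10. Since the allele is not known here, RNA from outside a deleted part cannot be told apart from intact RNA, and the level checks neither label. Every direction below is that of the Irf8KO-labelled libraries against those labelled WT.

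The libraries held an estimated 2880000 to 5010000 assigned fragments after pristane and 2260000 after PBS, and 9105 to 9849 genes reached 1 FPKM. Across genes, log2 values correlated at r = 0.974 between the Irf8KO-labelled libraries, at 0.948 between the WT libraries and at 0.891 to 0.926 between the groups. WT replicates differed at least 2-fold in 9.9% of the genes and replicates labelled Irf8KO in 4.46%. In the PBS library B cell genes summed to 3545 FPKM and large resident macrophage genes to 8877 FPKM, of which the acute phase gene Saa3 held 4852 FPKM. After pristane the macrophage list summed to 2244 and 1345 FPKM in WT. In the Irf8KO-labelled libraries it summed to 43188 and 40048 FPKM, mostly Saa3 (40842 and 36484 FPKM). The 2 WT libraries differed in sex-linked transcripts. Y-linked Eif2s3y was 12.9 FPKM in the first and listed at 0 in the second, against 23.2 and 25.6 FPKM in the Irf8KO-labelled libraries, and Xist was 8.81 FPKM in the second WT library and at most 0.0148 FPKM in the other 3. The ribosomal RNA precursor Rn45s, singled out after its values were seen, had the same split: 14587 FPKM in the first WT library, 0 in the second, and 9001 and 10403 FPKM in those labelled Irf8KO. The part of sex or of RNA selection in the results below was not tested.

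Among 11117 genes tested with limma over all 5 libraries, 3 passed an adjusted p of 0.05 (0.027%), and all 3 fell: the interferon-stimulated genes Rsad2, Ifit1 and Rtp4. Rsad2, which encodes the antiviral enzyme viperin, was 129.8 and 169 FPKM in WT and 1.48 and 1.33 FPKM in the Irf8KO-labelled libraries (difference -5.95, SE 0.21, limma adjusted p = 0.0368). Ifit1, which binds foreign RNA caps, was 50.1 and 49.8 against 0.153 and 0.221 FPKM (-5.42, SE 0.19, limma adjusted p = 0.0368). Rtp4, a chaperone-like interferon-induced protein, was 129 and 135 against 4.70 and 5.32 FPKM (-4.47, SE 0.16, limma adjusted p = 0.0368). In these 3 genes the replicates lay close together and far from the other group, and the PBS library, at 1.47, 1.86 and 17.0 FPKM in the same order, lay far below WT after pristane. An unadjusted p under 0.05 was reached by 2293 genes (20.6%), of them 1166 higher (10.5%) and 1127 lower (10.1%). With the 4 pristane libraries fitted alone, 431 genes passed the adjusted threshold, 207 of them higher (1.98% of 10431) and 224 lower (2.15%), with each library centred on its median 161 higher and 173 lower genes did, and with any 1 of the 4 left out none did, although 1005 to 2529 genes then had an unadjusted p under 0.05. Most genes are therefore described by their values and by whether the groups overlap.

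In 2795 genes (26.8%) both Irf8KO-labelled libraries lay above both WT libraries, in 2906 (27.9%) both lay below, and in 4730 the groups overlapped. The median difference over all genes was -0.01. Counts of list members without overlap below are to be read beside these shares of 26.8% and 27.9%. A difference of at least 1 without overlap was seen in 675 genes above (6.47%) and 655 below (6.28%), of at least 2 in 133 (1.28%) and 145 (1.39%), and of at least 3 in 39 (0.374%) and 56 (0.537%). Of those that differed by at least 2, 16 higher and 54 lower genes were in the lists of type I interferon response, inflammatory monocyte or large resident macrophage genes. The other 117 higher and 91 lower genes, and the pathways around them, are the subject of what follows. In bulk RNA of mixed cells, fewer cells of a type and less RNA per cell cannot be told apart.

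**Figure D1:**
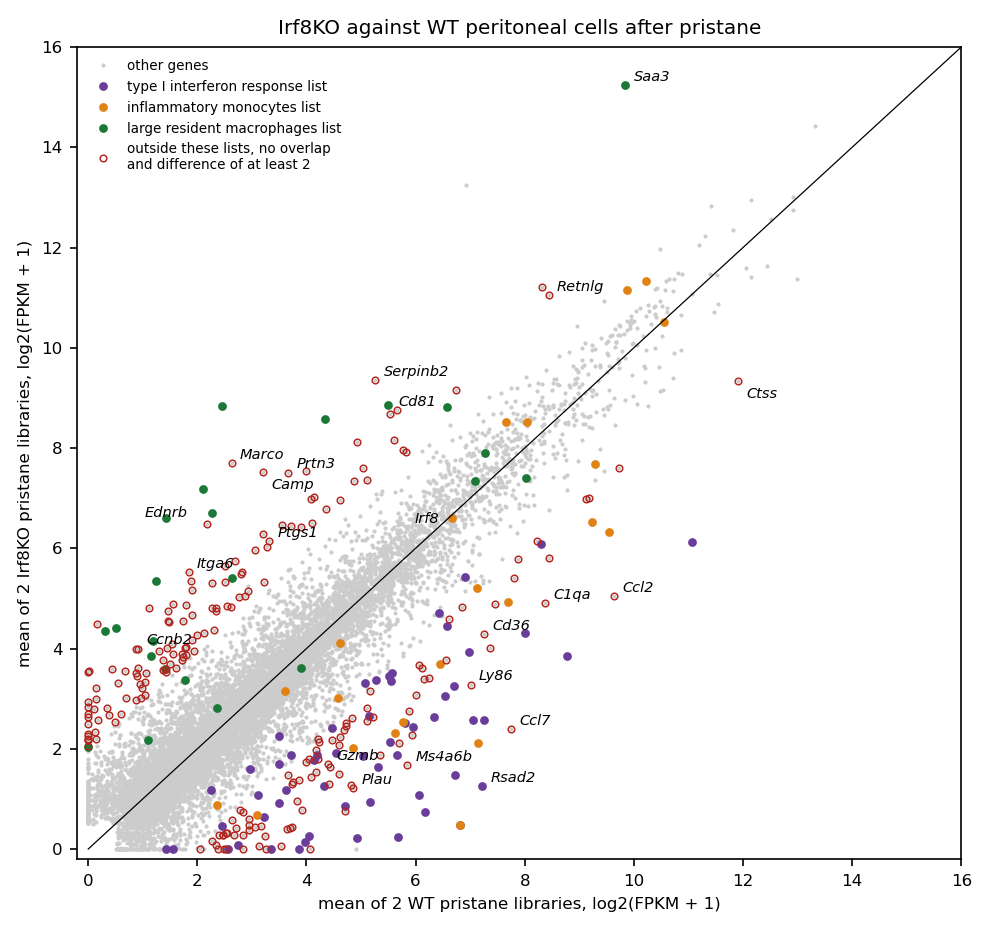
Each point is 1 of 10431 genes, with the mean of the 2 WT pristane libraries on the x axis and the mean of the 2 Irf8KO-labelled libraries on the y axis, both as log2(FPKM + 1). Filled colours mark the 3 lists and open circles the genes outside them with no overlap and a difference of at least 2, among them Marco (5.07) above the line of equality and Ccl7 (-5.35) below it; the grey point at 6.92 and 13.24 is Rn45s, whose groups overlapped.

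Promoter sequences give a view of these genes that the ranking did not use. RefSeq windows of 250 bases before to 50 bases after each start (build GRCm38.p6) were searched for 7923 of the 10431 genes. Not every chromosome was included in the search. The core of the interferon-stimulated response element, to which interferon regulatory factors bind, was searched as GAAANNGAA on both strands. It was in 9.19% of all these windows, in 26 of 42 of the interferon list (61.9%), in 17 of 70 of the genes lower by at least 2 outside the interferon list (24.3%) and in 5 of 94 of the genes higher by at least 2 (5.32%). Lists with mostly higher genes varied. Large resident macrophage genes had it in 3 of 14 windows (21.4%), granule genes in 1 of 17 (5.88%), mitosis genes in 1 of 19 (5.26%) and replication genes in 0 of 20. The interferon list does not hold every interferon-induced gene. Epsti1 and Ube2l6, below, are outside it, but neither is among the 17 lower genes with the element. The 17 do include Phf11a and Trim30d, relatives of the listed Phf11b and Trim30a, and Ddx60. The first pair below comes from genes past the threshold, and the other 3 from genes outside the 3 lists: Ly86, Ms4a6b and Ctss. Capitals mark every match to the core or to its reverse complement, with 25 bases on each side, read 5′ to 3′ on the strand of the gene.
Rsad2, chr12:26456538-26456596, minus strand: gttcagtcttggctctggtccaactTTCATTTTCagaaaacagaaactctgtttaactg
Ifit1, chr19:34640755-34640838, plus strand: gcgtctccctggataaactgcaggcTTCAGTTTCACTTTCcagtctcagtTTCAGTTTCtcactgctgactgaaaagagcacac
Ly86, chr13:37345320-37345378, plus strand: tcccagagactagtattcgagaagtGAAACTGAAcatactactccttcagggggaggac
Ms4a6b, chr19:11518328-11518386, plus strand: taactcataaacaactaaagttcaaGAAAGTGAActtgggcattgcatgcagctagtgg
Ctss, chr3:95526740-95526798, plus strand: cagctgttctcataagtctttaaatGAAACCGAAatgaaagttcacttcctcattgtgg
Ifit1 held 3 matches, 2 of them overlapping, between 109 and 84 bases upstream of the start. In Rsad2 the match began 119 bases upstream, in Ms4a6b 206, in Ctss 21, and in Ly86 it began at the annotated start. The Ets-Irf composite element, for interferon regulatory factors with partners such as PU.1, was searched as GGAANNGAA. It was in 9% of all windows and in 5 of 42 of the interferon list (11.9%). Of the genes lower by at least 2 outside that list 15 of 70 held it (21.4%), and of those higher 10 of 94 (10.6%). A match describes the letters only and shows no binding.

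The ranking of single genes left out predicted genes and those listed at 0 throughout a group or with a mean log2(FPKM + 1) under 3. Among the rest, the largest negative differences outside the 3 lists were those of the chemokines Ccl7 (-5.35) and Ccl2 (-4.58). Ms4a6b (-4.15) and Ly86 (-3.72) followed. Values of Ccl7 and Ccl2 are given with the other chemokines below. Ly86, the MD-1 protein that pairs with the Toll-like receptor relative RP105, was 142 and 114 FPKM in WT and 7.73 and 9.87 FPKM in the Irf8KO-labelled libraries (difference -3.72, SE 0.21, limma adjusted p = 0.0541, and 0.00385 in the 4 pristane libraries alone). Ms4a6b, a membrane-spanning protein of myeloid and T cells, was 35.4 and 88.8 against 3.13 and 1.5 FPKM. Its relative Ms4a6c was 114 and 234 against 31.3 and 7.19 FPKM. The Ms4a genes are similar in sequence and could share fragments. Aif1, the actin-binding protein Iba1 of macrophages, was 74.4 and 35 FPKM in WT and 3.93 and 2.78 FPKM in the other group. Axl, a receptor for dying cells, was 65.6 and 11 against 1.38 and 1.45 FPKM, so that the WT libraries were far from each other but above both others.

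Ctss encodes cathepsin S, the protease that trims the invariant chain from MHC class II. It stood at 3791 and 3909.7 FPKM in WT after pristane and at 683 and 613 FPKM in the Irf8KO-labelled libraries (-2.57, SE 0.19, limma adjusted p = 0.0541, and 0.00514 in the 4 pristane libraries alone). The PBS library, at 757 FPKM, lay near the latter. Other lysosomal genes did not share this direction as a list. Of 36 genes of the proton pump and hydrolases, 11 were higher (30.6%) and 13 lower (36.1%) without overlap (median -0.16). Over all genes the shares were 26.8% and 27.9%. Ctsk, the collagen-cleaving cathepsin K, was 37.6 and 87.3 against 5.22 and 6.29 FPKM and listed at 0 after PBS. Ctsd, the protease cathepsin D, was higher, at 3119 and 2383 FPKM in WT against 5727 and 9262 FPKM. Glb1, the lysosomal beta-galactosidase, was also higher, at 18.5 and 13.7 against 89.1 and 175 FPKM, and Laptm5 was 566 and 428 against 1212 and 1588 FPKM. The summed level of the list was 15901 and 16484 FPKM in WT and 14089 and 18779 FPKM in those labelled Irf8KO, which overlapped.

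MHC class I and class II genes differed in how far the replicates spread. Of 20 genes of class I presentation and the immunoproteasome, 19 were lower without overlap and none higher (median -1.13). Tap1, a subunit of the peptide transporter, was 70.7 and 80.3 FPKM in WT and 10.6 and 8.77 FPKM in the Irf8KO-labelled libraries (-2.84, SE 0.18, limma adjusted p = 0.0541). Nlrc5, the transactivator of class I genes, was 6.86 and 6.57 against 0.319 and 0.463 FPKM. Psmb8, a catalytic subunit of the immunoproteasome, was 355 and 337 against 113 and 102 FPKM. The invariant light chain B2m differed less, at 5155 and 3985 against 2717 and 2724 FPKM, and H2-D1 was 1416 and 1007 against 977 and 1005 FPKM. With the 4 pristane libraries alone, 8 of the 20 passed the threshold, all of them lower (40%, against 2.15% of all genes). The class I genes are also interferon-stimulated, and the interferon list was lower without overlap in 57 of 57 genes (median -3.03). Whether the differences of these lists are linked was not tested.

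Of 14 genes of class II presentation, 9 were lower without overlap and none higher (median -1.34). With the 4 pristane libraries alone 2 passed (14.3%, against 2.15% of all genes lower in that fit), Ctss and Cd40 (limma adjusted p of 0.00514 and 0.0224). The class II chains H2-Aa and H2-Ab1 did not (limma adjusted p of 0.105 and 0.202). H2-Aa, an alpha chain, was 1069 and 313 FPKM in WT and 169 and 95.4 FPKM in the Irf8KO-labelled libraries, and H2-Ab1 was 1414 and 277 against 224 and 120.0 FPKM. The WT libraries differed from each other by a median of 1.66 on the log2 scale over this list, more than the difference between the groups. Cd74, the invariant chain, was 1790.0 and 360.1 against 481 and 258 FPKM, and its groups overlapped. The PBS library was higher than all 4, with 2765 FPKM of H2-Aa and 4799 FPKM of Cd74. Cd40, the costimulatory receptor, was 25.2 and 11.3 against 1.83 and 1.97 FPKM.

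The 3 chains of C1q, which starts the classical complement pathway and coats dying cells, were lower. C1qa was 383 and 287 FPKM in WT and 19.8 and 41.8 FPKM in the Irf8KO-labelled libraries (-3.48, SE 0.42, limma adjusted p = 0.0747, and 0.0087 in the 4 pristane libraries alone). C1qc was 321 and 381 against 32.6 and 90.7 FPKM, and C1qb 941 and 764 against 109.9 and 339.7 FPKM. Other complement genes were higher. Cfp, or properdin, which stabilises the alternative pathway convertase, was 407 and 384 FPKM in WT and 898 and 937 FPKM in the other group. C4b was 0.901 and 4.69 against 9.53 and 20 FPKM, and Cd55, which speeds the decay of the convertases, was 2.55 and 1.13 against 18.9 and 34.7 FPKM. Over the whole list of 15, 6 were higher and 7 lower without overlap.

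Chemokines that attract monocytes were lower. Ccl2 was 247 and 2519 FPKM in WT and 36 and 28.6 FPKM in the Irf8KO-labelled libraries, and Ccl7 was 50.3 and 898 against 4.19 and 4.31 FPKM. The WT libraries lay far apart in both genes, and the differences of -4.58 (SE 1.20) and -5.35 (SE 1.47) had limma adjusted p of 0.172 and 0.18. Ccl8 was 11.7 and 21 FPKM in WT and listed at 0 in both Irf8KO-labelled libraries, where a 0 can also be a failed estimate. Tnf, the inflammatory cytokine, was 737 and 671 against 286 and 122 FPKM (-1.91, SE 0.46). Cxcl2, which attracts neutrophils through Cxcr2, was 1348 and 769.8 FPKM in WT and 1572 and 765 FPKM in the other group, and the groups overlapped. Of 20 chemokines 9 were lower and none higher without overlap, and of 17 chemokine receptors 9 were lower and 3 higher.

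Among 19 inflammatory cytokines 7 were lower and 1 was higher without overlap, and that 1 was Il6, the cytokine that drives the acute phase response. Il6 was 26 and 26.3 FPKM in WT and 101 and 76.7 FPKM in the Irf8KO-labelled libraries (1.71, SE 0.20, limma adjusted p = 0.0694, and 0.018 in the 4 pristane libraries alone). Il18 was 21.9 and 30.9 against 8.65 and 11.3 FPKM. Il1b overlapped, at 2118 and 939 against 1128 and 546 FPKM. Saa3, an acute phase serum amyloid protein made by macrophages, was the most abundant transcript of the Irf8KO-labelled libraries, at 1337 and 628 FPKM in WT against 40842 and 36484 FPKM, with 4852 FPKM after PBS (5.39, SE 0.46). It is in the large resident macrophage list, of whose 23 genes 18 were higher without overlap (median 2.77).

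**Figure D2:**
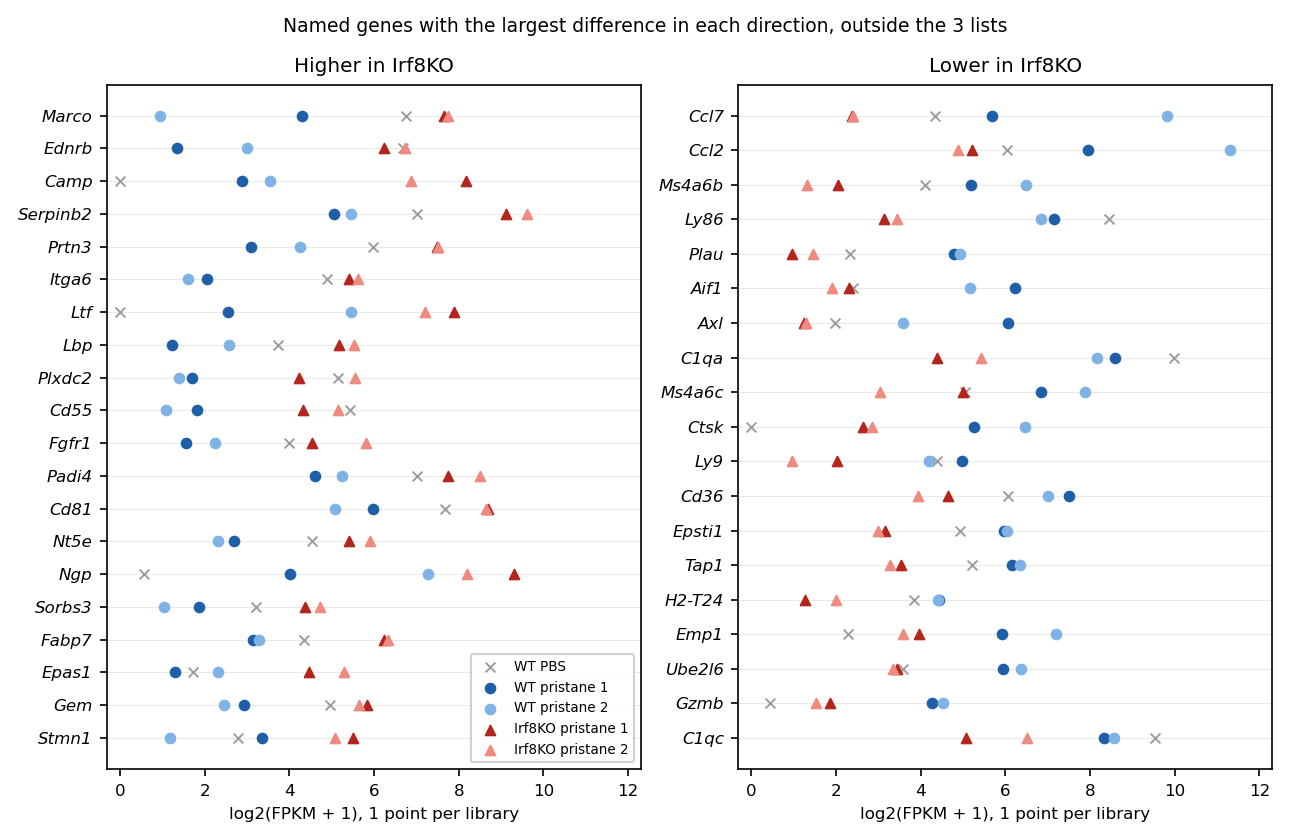
Values in each of the 5 libraries, as log2(FPKM + 1), for the genes named in the text among the 20 with the largest positive (left) and the 20 with the largest negative (right) difference outside the 3 lists. Circles are WT pristane, triangles Irf8KO-labelled libraries and crosses the PBS library; in every gene the triangles lie on 1 side of both circles, and the WT circles of Marco, Ngp, Ccl7 and Ccl2 lie far apart.

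Positive differences were ranked by the same rule, with a mean log2(FPKM + 1) of at least 3 and no group listed at 0 throughout. The largest outside the 3 lists were those of Marco (5.07), Ednrb (4.32), Camp (4.32) and Serpinb2 (4.10). Camp is described with the granule genes. Marco, a scavenger receptor of macrophages, was 18.7 and 0.934 FPKM in WT and 199 and 215 FPKM in the Irf8KO-labelled libraries, with 107 FPKM after PBS (5.07, SE 1.20, limma adjusted p = 0.154, and 0.0486 in the 4 pristane libraries alone). Ednrb, an endothelin receptor, was 1.56 and 6.95 against 74.4 and 106 FPKM, with 102 FPKM after PBS. Itga6, the laminin-binding integrin alpha 6, was 3.17 and 2.06 against 41.6 and 48.6 FPKM (3.68, SE 0.24, limma adjusted p = 0.0541). In Marco, Ednrb and Itga6 the groups stood far apart, and the PBS library lay near the Irf8KO-labelled libraries.

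Serpinb2, an inhibitor of plasminogen activators, was 32.2 and 43 FPKM in WT and 550.3 and 784 FPKM in the Irf8KO-labelled libraries (4.10, SE 0.27, limma adjusted p = 0.0541, and 0.00385 in the 4 pristane libraries alone). Its target Plau, the urokinase that activates plasminogen, had the opposite direction, at 26.5 and 29.6 against 0.965 and 1.77 FPKM (-3.64, SE 0.26). Plaur, the urokinase receptor, was 356 and 369.8 against 248 and 222 FPKM. Plau and Plaur were thus lower and Serpinb2 higher, without overlap in any of the 3 genes. Over 22 matrix proteases and inhibitors 7 were higher (31.8%) and 9 lower (40.9%), against 26.8% and 27.9% of all genes.

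Several other genes, some of them for surface proteins, were higher by at least 3 on the log2 scale. Cd81, a tetraspanin, was 61.7 and 32.9 FPKM in WT and 414 and 402 FPKM in the Irf8KO-labelled libraries. Nt5e, or CD73, which makes adenosine from AMP, was 5.49 and 3.99 against 41.4 and 58.5 FPKM. Fgfr1 was 1.96 and 3.77 against 22.1 and 54.8 FPKM. Fabp7, a fatty acid carrier, had close replicates in both groups, at 7.81 and 8.71 against 74.6 and 80 FPKM (3.08, SE 0.16, limma adjusted p = 0.0541). Its PBS value of 19.2 FPKM lay between the groups. Lbp, the lipopolysaccharide-binding protein, was 1.33 and 4.93 against 35.1 and 44.9 FPKM. Epas1, the hypoxia-inducible factor HIF-2 alpha, was 1.45 and 3.99 against 21 and 38.1 FPKM and 2.33 FPKM after PBS. Retn was listed at 0 in both WT libraries and after PBS and was 12.2 and 9.06 FPKM in those labelled Irf8KO.

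Several of the ranked genes were in no list. Gem, a small GTP-binding protein, was 6.58 and 4.49 FPKM in WT and 56.2 and 49.2 FPKM in the Irf8KO-labelled group (3.05, SE 0.23, limma adjusted p = 0.0541), Plxdc2, a plexin-domain membrane protein, was 2.26 and 1.63 against 17.9 and 45.8 FPKM, and the adaptor Sorbs3 was 2.66 and 1.06 against 19.7 and 25.3 FPKM. Among the lower genes, Epsti1 and Ube2l6 are induced by interferon although the interferon list did not hold them. Epsti1 was 61.6 and 65.3 against 7.92 and 6.98 FPKM (-2.93, SE 0.16), and Ube2l6, the conjugating enzyme for the ubiquitin-like Isg15, was 60.4 and 82.5 against 9.89 and 9.13 FPKM. Ly9, a SLAM family receptor of lymphocytes and macrophages, was 30.6 and 17.4 against 3.09 and 0.939 FPKM, H2-T24, a non-classical class I gene, was 20.8 and 20.4 against 1.43 and 3.02 FPKM, and Emp1, an epithelial membrane protein, was 60.1 and 145 against 14.7 and 11 FPKM. Spon1, a matrix protein, was 5.93 and 6.28 FPKM in WT and listed at 0 in both others.

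Receptors for the Fc part of antibodies differed by member. Fcgr1, the high-affinity IgG receptor, is also in the monocyte list and was 73.1 and 271 FPKM in WT and 2.97 and 3.72 FPKM in the Irf8KO-labelled group (-5.04, SE 0.69, limma adjusted p = 0.0883, and 0.0102 in the 4 pristane libraries alone). Fcgr4 was 80.1 and 225 against 41.4 and 37.8 FPKM, and the inhibitory receptor Fcgr2b was 138 and 244 against 93.4 and 122 FPKM. The signalling chain Fcer1g, which Fcgr1 and Fcgr4 need at the surface, was higher, at 1925 and 1499 against 2921 and 2383 FPKM. Fcgr3, which also uses this chain, overlapped, at 102 and 259.9 against 168 and 217 FPKM. Of the 6 genes of the list 3 were lower and 2 higher without overlap.

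The PBS library was not used in ranking these genes, although it shares a fit and a genotype with the WT libraries. Of the 117 genes higher by at least 2 outside the 3 lists, 83 had a PBS value above both WT libraries, and 15 had one above both Irf8KO-labelled libraries. Over the 10330 genes outside the 3 lists the same counts were 4243 and 4372. Of the 91 lower genes, 69 had a PBS value below both WT libraries and 16 had one below both labelled Irf8KO, against 4078 and 4491 over those 10330 genes. The WT libraries entered the choice of these genes and the counts alike, so the counts are a description.

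Most eicosanoid enzymes were higher. Of 14 genes of prostaglandin and leukotriene synthesis 9 were higher and 2 lower without overlap (median 0.47). Ptgs1, the cyclooxygenase COX-1, was 8.11 and 9.98 FPKM in WT and 62 and 77.7 FPKM in the Irf8KO-labelled libraries (2.82, SE 0.21, limma adjusted p = 0.0541, and 0.00514 in the 4 pristane libraries alone). Alox5, the 5-lipoxygenase that starts leukotriene synthesis, was 18.4 and 20.5 against 92.7 and 130.4 FPKM (2.44, SE 0.23). Its partner Alox5ap, already high in WT at 1145 and 1299 FPKM, was 1870.3 and 1808 FPKM. Ltc4s, which makes leukotriene C4, was 163 and 119 against 368 and 451 FPKM. Ptgs1, Alox5 and Ltc4s passed the threshold in the 4 pristane libraries alone (21.4% of the list, against 1.98% of all genes).

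Cell division genes were higher in nearly every member. Of 23 mitosis genes all 23 were higher without overlap (median 1.44), and 12 (52.2%, against 1.98% of all genes) passed with the 4 pristane libraries alone. Ccnb2 and Ccnb1, the B-type cyclins, were 1.03 and 0.768 against 14.9 and 15.1 FPKM (3.08, SE 0.20) and 0.733 and 0.467 against 11.5 and 10 FPKM (2.88, SE 0.22). Ube2c, the ubiquitin-conjugating enzyme of the anaphase-promoting complex, was 5.93 and 3.63 against 37.3 and 40.9 FPKM. Birc5, or survivin, was 3.59 and 4.04 against 31.6 and 22.9 FPKM. The summed level of the 23 genes was 29.6 and 23.3 FPKM in WT, 188 and 171 FPKM in the Irf8KO-labelled libraries and 35.2 FPKM after PBS. Stmn1, a tubulin-binding protein of dividing cells outside the list, was 9.17 and 1.28 against 44.5 and 33 FPKM.

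DNA replication genes differed less. Of 23, 21 were higher without overlap (median 0.83) and 3 (13%, against 1.98% of all genes) passed with the 4 pristane libraries alone. Rrm2, the regulated subunit of ribonucleotide reductase, was 2.81 and 2.17 FPKM in WT and 12.8 and 14.6 FPKM in the Irf8KO-labelled libraries (2.08, SE 0.22). Tk1, the thymidine kinase of S phase, was 2.81 and 2.46 against 12.4 and 13.9 FPKM. Mcm5, a helicase subunit, was 8.46 and 3.79 against 17.8 and 20.6 FPKM. Pcna overlapped, at 59.7 and 69.4 against 72.2 and 65 FPKM. Fen1 was the other replication gene whose groups overlapped.

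Promoters of the mitosis genes shared letters that the list did not use. The cell cycle homology region TTTGAA, searched on both strands, was in 15 of 19 mitosis windows (78.9%) and in 14.2% of all 7923 windows. The letters CCAAT were in 17 of 19 (89.5%) and in 42.7% of all. Among the replication genes TTTGAA was in 3 of 20 windows (15%) and CCAAT in 13 of 20 (65%). The letters TTTCGCGC and TTTGGCGC, forms of the E2F site, were in 6 and 5 of these 20 windows (30% and 25%). Over all windows their shares were 0.745% and 1.21%, and in the mitosis windows 5.26% and 0%. TTTGAA was also above its share over all windows in the genes lower by at least 2 (31.4%), in those higher by at least 2 (26.6%) and in the interferon list (35.7%). Cdk1, the mitotic kinase, and Ube2c are shown with TTTGAA, or its reverse complement, in capitals.
Cdk1, chr10:69352897-69353008, minus strand: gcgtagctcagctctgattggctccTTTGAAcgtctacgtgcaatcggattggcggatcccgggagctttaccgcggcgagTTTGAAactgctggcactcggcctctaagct
Ube2c, chr2:164769875-164769930, plus strand: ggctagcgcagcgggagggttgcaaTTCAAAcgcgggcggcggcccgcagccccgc
The matches began 71 and 15 bases upstream of the Cdk1 start and 29 bases upstream of that of Ube2c. Cdk1 RNA was 0.903 and 1.22 FPKM in WT and 8.58 and 6.44 FPKM in the Irf8KO-labelled libraries. A 6-letter motif matches often by composition alone, which is why the share over all windows stands beside it.

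**Figure D3:**
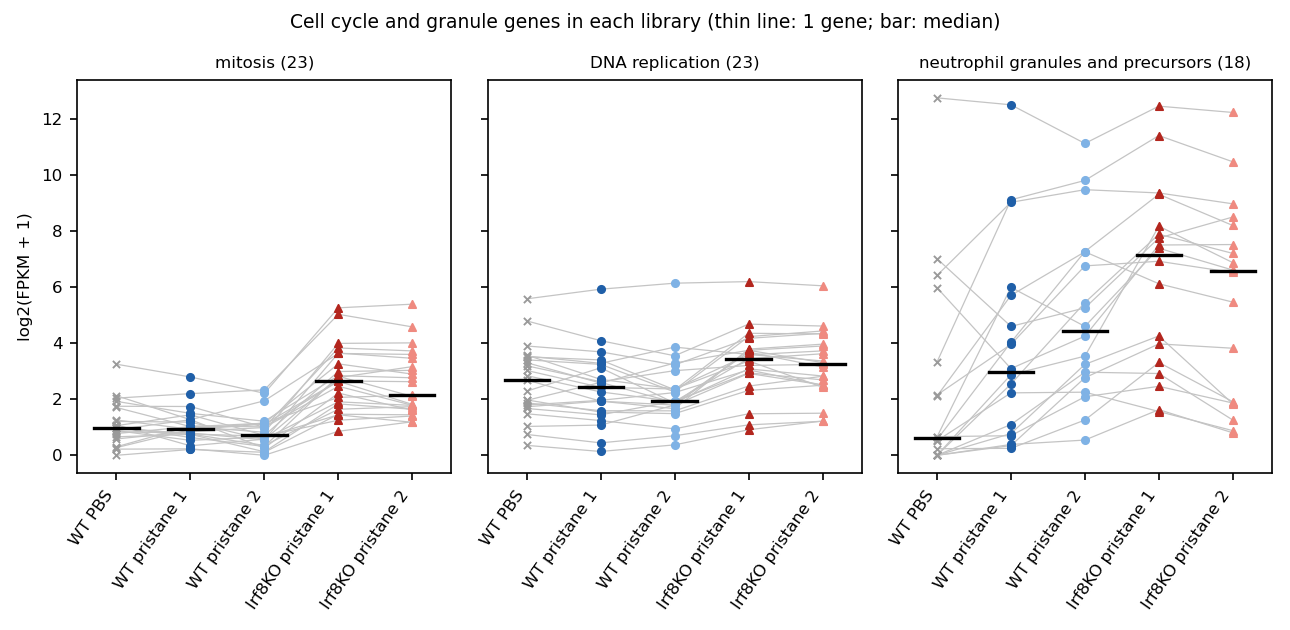
Values of the mitosis, DNA replication and neutrophil granule genes in each library, as log2(FPKM + 1), with 1 thin line per gene and a bar at the median of the list. Mitosis genes sit low in the PBS and WT libraries and higher in both Irf8KO-labelled libraries; granule genes are spread widely in every library.

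Most genes of neutrophil granules were higher, whereas those of mature neutrophils were mixed. Granule proteins are made in the bone marrow by immature neutrophils, and their RNA is scarce in the mature cell. Of 18 granule and precursor genes 10 were higher and 1 lower without overlap (median 1.42). With the 4 pristane libraries alone 3 passed, all higher (16.7%, against 1.98% of all genes). Replicates were far apart over this list. The median of the first library minus the second was -1.08 in WT and 0.69 in the Irf8KO-labelled group (log2). Camp, the antimicrobial cathelicidin, was 6.33 and 10.6 FPKM in WT and 287 and 116 FPKM in the Irf8KO-labelled libraries (4.32, SE 0.54, limma adjusted p = 0.0776, and 0.00845 in the 4 pristane libraries alone). Ltf, the iron-binding lactoferrin, was 4.82 and 42.6 against 235 and 146 FPKM, and Ngp was 15.3 and 153 against 633 and 292 FPKM. Lcn2, a siderophore-binding protein, was 552 and 891 against 2706 and 1414 FPKM. Unlike Camp, Ltf, Ngp and Lcn2 did not pass in the 4 pristane libraries alone (limma adjusted p of 0.0851, 0.145 and 0.103). All 4 are specific granule proteins, and Camp and Ltf were listed at 0 after PBS.

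Primary granule genes were low apart from Prtn3. Mpo was 0.188 and 1.39 FPKM in WT and 8.92 and 2.76 FPKM in the Irf8KO-labelled libraries, and Elane, at 0.711 and 8.46 against 18.1 and 2.57 FPKM, overlapped. Prtn3, proteinase 3, was 7.53 and 18 against 179.9 and 182 FPKM, and Padi4, an enzyme that converts arginine in histones, was 23.2 and 37.2 against 214 and 360.4 FPKM. Unlike Camp and Ltf, both had sizeable PBS values, 62 FPKM for Prtn3 and 128 FPKM for Padi4. Cebpe, the transcription factor of specific granule formation, was lower, at 3.68 and 3.76 FPKM in WT against 1.95 and 0.839 FPKM.

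Of 19 mature neutrophil genes 6 were higher (31.6%, against 26.8% of all genes) and 3 lower (15.8%, against 27.9%) without overlap, and 10 overlapped. Their median was 0.21, and it was -0.46 without the second WT library and -0.04 without the first Irf8KO-labelled one. S100a8, the calcium-binding subunit of calprotectin, was 10376 and 9877 FPKM in WT and 29441 and 16299.9 FPKM in the Irf8KO-labelled libraries (1.11, SE 0.38, and -0.00 after quantile normalization), while its partner S100a9 overlapped, at 5295 and 3833 against 11882 and 5221 FPKM. Retnlg was 324 and 370.3 against 3401 and 1325 FPKM, and the collagenases Mmp8 and Mmp9 were 21.7 and 128 against 336 and 186 FPKM and 124 and 78 against 435 and 281 FPKM. Il1r2, which captures interleukin-1 without signalling, was lower, at 212 and 321 against 170.2 and 107 FPKM. The first Irf8KO-labelled library was above the second in S100a8, S100a9 and Retnlg. The summed level of the list was 21249 and 18799.6 FPKM in WT, 51784 and 30765 FPKM in those labelled Irf8KO and 2390.5 FPKM after PBS.

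**Figure D4:**
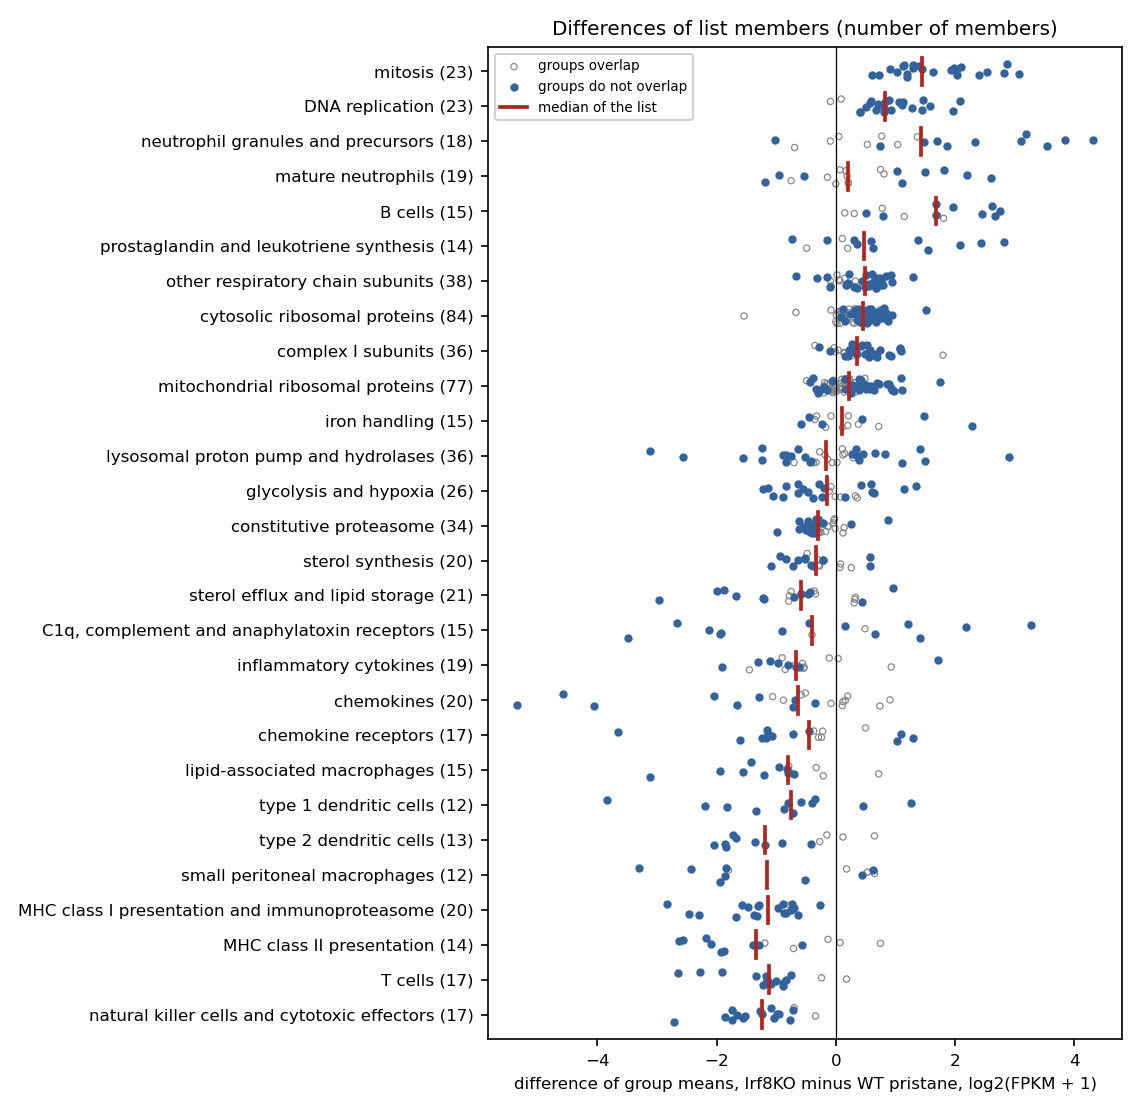
Differences of group means for each member of 28 gene lists, with the number of members in brackets; filled points are genes whose groups did not overlap and red bars are list medians. Mitosis, B cell and granule genes lie mostly to the right (medians 1.44, 1.69 and 1.42), and T cell, natural killer cell, class I and class II genes mostly to the left (medians -1.12, -1.24, -1.13 and -1.34).

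Lymphocyte genes went in different directions by cell type. Of 15 B cell genes 9 were higher and none lower without overlap (median 1.69). Cd79b, a signalling chain of the B cell receptor, was 9.63 and 3.58 FPKM in WT and 59.1 and 32.5 FPKM in the Irf8KO-labelled libraries, and Bank1 was 0.925 and 0.846 against 4.65 and 5.5 FPKM. The summed level of the 15 genes was 68.9 and 19.3 FPKM in WT and 289 and 134 FPKM in those labelled Irf8KO, far below the 3545 FPKM of the PBS library. Of 6 plasma cell genes 1 was higher and 2 were lower without overlap. Igj, the joining chain of secreted antibodies, was lower at 7.86 and 8.03 against 0.199 and 0.575 FPKM. The higher gene was Mzb1, at 3.28 and 3.25 against 8.04 and 8.79 FPKM.

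T cell genes were lower without overlap in 15 of 17 (median -1.12), and those of natural killer cells and cytotoxic effectors in 15 of 17 (median -1.24), with none higher in either list. Cd8b1, a chain of the CD8 coreceptor, was 18.8 and 13.4 FPKM in WT and 1.79 and 1.64 FPKM in the Irf8KO-labelled libraries (-2.64, SE 0.25, limma adjusted p = 0.0562, and 0.00669 in the 4 pristane libraries alone). Cd3g, part of the T cell receptor complex, was 26.3 and 22 against 12.1 and 9.14 FPKM, a smaller difference of -1.12 (SE 0.22). Gzmb, the granule protease granzyme B, was 18.4 and 22 against 2.61 and 1.87 FPKM (-2.71, SE 0.24). Klrk1, the activating receptor NKG2D, was 6.18 and 7.87 against 1.44 and 1.34 FPKM. After PBS, Cd8b1 was 5.77 FPKM and Gzmb 0.36 FPKM.

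Many dendritic cell markers were low in all libraries and lower in those labelled Irf8KO. Clec9a, the receptor for dead cells that marks type 1 dendritic cells, was 1.12 and 0.74 FPKM in WT and 0 and 0.0974 FPKM in the Irf8KO-labelled libraries. Batf3, the factor that works with Irf8 in these cells, was 4.98 and 4.12 against 0.469 and 0 FPKM (-2.19, SE 0.28), and Flt3, the growth factor receptor of dendritic cells, was 4.43 and 1.86 against 0.053 and 0.153 FPKM. Plasmacytoid dendritic cell markers had no shared direction, with 4 lower and 1 higher of 10 without overlap (median -0.04). Siglech, a surface lectin of these cells, was 4.12 and 1.35 against 0.171 and 0.123 FPKM, while Bcl11a, a transcription factor that B cells also use, was 0.501 and 1.35 against 1.56 and 2.47 FPKM. Of 12 type 1 markers 10 were lower and 2 higher without overlap, and of 13 type 2 markers 9 were lower and none higher. The 2 higher type 1 markers were Cd24a, which neutrophils and B cells also carry, at 147 and 194 against 382 and 438 FPKM, and the sorting nexin Snx22.

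Genes described elsewhere as Irf8 targets were lower without overlap in 9 of 19 and higher in 2 (median -0.56), and in 9 and 0 after quantile normalization. Tlr9, the endosomal DNA receptor, was 7.66 and 6.48 FPKM in WT and 1.68 and 0.811 FPKM in the Irf8KO-labelled libraries, and Naaa, a lysosomal amidase, was 49.9 and 66.6 against 15.5 and 15.7 FPKM. Klf4, the monocyte transcription factor downstream of Irf8, was 10 and 8.64 against 4.29 and 3.94 FPKM. Cst3, the protease inhibitor cystatin C, was 2222 and 1616 against 2760.1 and 2921 FPKM. Among 38 lineage transcription factors 17 were lower and 6 higher, and Irf5, a relative of Irf8, was 106 and 132 against 47.2 and 24.6 FPKM.

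Most macrophage lipid genes whose groups did not overlap were lower. Cd36, a receptor for oxidised lipids, was 181 and 127 FPKM in WT and 24.1 and 14.3 FPKM in the Irf8KO-labelled libraries (-2.97, SE 0.34, limma adjusted p = 0.0694). Pparg, a nuclear receptor that activates Cd36, was 5.86 and 5.88 against 0.926 and 0.53 FPKM, and Nr1h3, the oxysterol receptor LXR alpha, was 35.8 and 16.6 against 7.2 and 6.74 FPKM. Apoe overlapped, at 3125 and 2566 against 3076 and 917 FPKM. Of 21 genes of sterol efflux and lipid storage 10 were lower and 2 higher, and of 15 genes of lipid-associated macrophages 9 were lower and none higher (median -0.80). Spp1, or osteopontin, was 5509 and 5626 against 3279 and 3113 FPKM, and Lgals3, or galectin 3, was 970.1 and 1553 against 514 and 407 FPKM. Sterol synthesis genes were lower in 11 of 20 and higher in 2 (median -0.34).

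Markers of alternative activation of macrophages by interleukin-4 were lower without overlap in 8 of 18 genes and higher in 1 (median -0.33). Folr2, the folate receptor beta, was 41.5 and 83.3 FPKM in WT and 11.6 and 21.3 FPKM in the Irf8KO-labelled libraries. Mrc1, the mannose receptor CD206, was 3.82 and 35.6 against 1.66 and 1.28 FPKM, with most of its level in 1 WT library. Arg1, arginase 1, did not separate the groups, at 3858 and 8864 against 5918 and 6134 FPKM.

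Housekeeping lists showed small differences of many genes. Of 84 cytosolic ribosomal protein genes 61 were higher and none lower without overlap (72.6%, median 0.47), and none passed with the 4 pristane libraries alone. The summed level of the list was 55136 and 51763 FPKM in WT, 83977 and 66664 FPKM in those labelled Irf8KO and 154723 FPKM after PBS. Ribosome assembly genes did not go with them, at 3 higher and 6 lower of 25 (median -0.19). Complex I subunits of the respiratory chain were higher in 25 of 36 (median 0.35) and other chain subunits in 26 of 38 (median 0.50), with Uqcr11 at 139 and 161 against 355 and 389 FPKM. The constitutive proteasome was lower in 19 of 34 genes (median -0.31), with 2 higher. Glycolysis and hypoxia genes went both ways, with 13 lower and 7 higher of 26 (median -0.16). Bnip3, a mitophagy receptor induced by hypoxia, was 110.4 and 138 against 57.4 and 48.3 FPKM, and Egln3, an oxygen-sensing hydroxylase that hypoxia also induces, was 32.1 and 30.8 against 58.8 and 85.1 FPKM. Long nuclear RNA Malat1 was 29.7 and 27.8 against 12.5 and 17.2 FPKM; the part of RNA quality in these small shifts was not tested.

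Most markers of fibroblasts and mesothelium were low and had overlapping groups. Of 14 fibroblast and mesothelium genes 3 were lower and none higher, and their summed level was 85.9 and 85 FPKM in WT and 35.6 and 99.2 FPKM in the Irf8KO-labelled libraries. Globin RNA was uneven: Hbb-b1 was 0.696 and 8.4 FPKM in WT, 26.9 and 2.48 FPKM in those labelled Irf8KO and 121 FPKM after PBS. Pf4, a gene of the platelet list, was 34.6 and 177 against 85.4 and 204 FPKM and overlapped. The platelet list summed to 34.9 and 182 FPKM in WT, mostly Pf4, and to 1119.7 FPKM after PBS. The cell source of Pf4 was not tested. Eosinophil genes of the ribonuclease family had both directions, with Ear2 at 14.9 and 16.1 against 4.18 and 1.31 FPKM and Ear6 at 0 and 1.94 against 2.82 and 9.89 FPKM, and similar sequences could split their fragments.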

How the data were processed

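RNA of peritoneal cells from 5 mouse libraries was measured by Smart-seq2 sequencing. The deposited table is called a count table, but the authors' values are FPKM: they are not whole numbers, and they scale with transcript length. Among the tools in the submitters' processing notes are Cufflinks 2.2.1 and its Cuffnorm, which make FPKM values, and the aligners TopHat2 2.0.10 and BWA, with no role stated. Genome build, annotation, strand use and any scaling between libraries were not stated in the labels or file. Of the 22815 rows, 27 were symbols turned into dates and were not named. Fragment totals were estimated from low values of genes with 1 transcript of at least 1000 bases in GENCODE vM21, whose products with length gather at whole fragments (66.7% to 81.0% within 0.15 of 1 or 2).

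The test was limma-trend (limma 3.58.1, R 4.3.3). It was fitted to log2(FPKM + 1) of all 5 libraries with 1 mean for each of the 3 groups. A pseudocount of 1 understates changes of low genes. A gene entered the fit when any of the 5 libraries reached 1 FPKM, which 11117 did. P-values were 2-sided and Benjamini-Hochberg adjusted over these genes, with 0.05 as the threshold. Residual degrees of freedom were 2 and prior degrees of freedom 1.99. The fit was checked on simulated data. With 2 libraries against 2, "no overlap" means that both values of a group lay above, or below, both of the other. Of the genes, 121 were listed at 0 in 1 library and at 10 FPKM or more in another, so a 0 may be a failed estimate. Tables and figures were made in Python 3.11.15 with pandas 2.3.3 and matplotlib 3.10.9.

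The genes and gene lists were chosen with earlier results of these data known. Lists are described by counts and medians beside all genes, with no test. Named genes were Irf8, those past the threshold, the 20 largest differences in each direction without overlap and at a mean level of 3 or more (log2) outside the 3 lists, genes listed at 0 throughout 1 group and at least 5 FPKM in the other, and per list up to 6 non-overlapping members of largest difference, up to 2 against its direction and the 2 of highest level. The 20th and 21st positive differences were 3.03 (Stmn1) and 2.92 (Serpinb1a), and the negative ones -2.66 (C1qc) and -2.58 (Rnase4). Predicted genes and antigen receptor segments were left out. Cdk1, Fen1, Mpo, Elane and Rn45s were named outside this rule after their values were seen. Some named genes are not reported here. Promoter windows came from RefSeq (GRCm38.p6), matched by symbol. Alternatives were other fits, pseudocounts, filters and scalings, a replicate block, and leaving out each library.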

Additional observations from a re-analysis of the deposited data

How the results depend on the processing

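The number of genes past the threshold moved most. Against 3 genes in the fit to 5 libraries, 431 passed in the 4 pristane libraries alone, 40 without a trend in the variance prior, 5 with a pseudocount of 5, 242 with a mean of at least 5 FPKM and 334 with each library centred on its median. None passed with a pseudocount of 0.1 or with no filter on low values, where 2234 and 2586 genes had an unadjusted p under 0.05, and 0 with any 1 pristane library left out (1005 to 2529 at an unadjusted p under 0.05). Rsad2, Ifit1 and Rtp4 were kept in each fit that called any gene. The cause was not tested. The labels do not say whether replicate numbers pair the samples. Across genes, same-numbered libraries deviated together at r = 0.045, which cannot decide this with 2 libraries per group. A replicate block raised the count to 799.

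The counts of genes without overlap were 1748 (higher) and 1633 (lower) among genes that averaged 5 FPKM or more, which are fewer. With 1 library left out they were 3549 to 4276 higher and 3824 to 4228 lower, where 1 library against 2 overlaps less often by construction. With a difference of at least 2 they were 359 and 343 with a pseudocount of 0.1, 57 and 64 with a pseudocount of 5, and 128 to 212 and 142 to 202 with 1 library left out. The Irf8 difference was 0.09 to 1.10 with 1 library left out and stayed on the same side of the threshold in every fit. Of 1906 gene differences under the alternatives, 15 reversed, in 11 of 148 genes. After quantile normalization Arg1 was -0.22, Cxcl2 -0.06 and S100a8 -0.00. With 1 library left out, Apoe ranged from -1.63 to 0.12, Arg1 from -0.56 to 0.64, Cxcl2 from -0.41 to 0.62, Elane from -0.20 to 2.27, Fcgr3 from -0.44 to 0.90, Pcna from -0.02 to 0.20, Hbb-b1 from -0.20 to 2.81, Pf4 from -0.42 to 1.90, Rn45s from -0.59 to 13.24 and Xist from -3.27 to 0.02. Of 56 list medians, 14 changed sign under at least 1 alternative, none of them for mitosis, granules, B, T or natural killer cells, class I or class II. At the estimated depth a gene near 1 FPKM rests on few fragments, so 0 values and folds of low genes, such as those of dendritic cells, are imprecise.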

Other observations

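Several gene groups outside the comparisons above had members on both sides. Among chemokine receptors, Cxcr4, the receptor that holds cells in bone marrow, was 76.1 and 64.6 FPKM in WT and 30.3 and 27.9 FPKM in the Irf8KO-labelled group (-1.24, SE 0.17), and Cxcr3, of effector lymphocytes, was 9.45 and 6.79 against 2.35 and 1.59 FPKM. Cxcr5, which guides B cells, was higher, at 2.73 and 1.08 against 7.34 and 4.57 FPKM. The PBS library held 114 FPKM of Cxcr5. In the list of NADPH oxidase and nitric oxide genes 5 of 11 were higher and 2 lower without overlap. Rac2, the GTPase of the oxidase, was 192 and 132 against 354 and 287 FPKM, and Slc7a2, an arginine transporter, was 31.4 and 53.5 against 109.8 and 178 FPKM. Gch1, which makes the cofactor of nitric oxide synthase, was lower, at 22.4 and 16.7 against 8.7 and 8.79 FPKM.

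Of 15 Bcl2 family genes 7 were lower and 2 higher. The lower ones held both death-promoting and protective members: Pmaip1, or Noxa, was 23.3 and 17.9 FPKM in WT against 8.5 and 5.7 FPKM, Bcl2l11, or Bim, was 14.2 and 19.3 against 8.79 and 5.77 FPKM, and Mcl1, which keeps neutrophils alive, was 88.2 and 117 against 78.6 and 64 FPKM. Among redox genes Txn1, thioredoxin, was higher, at 409 and 275 against 760.1 and 751 FPKM, and the haem-degrading Hmox1 differed little, at 129 and 157 against 122 and 121 FPKM. Idh2, the mitochondrial isocitrate dehydrogenase, was 14.6 and 14.4 against 36 and 47.6 FPKM (1.45, SE 0.20). The tricarboxylic acid cycle list as a whole had 5 higher (31.2%) and 3 lower (18.8%) of 16, against 26.8% and 27.9% of all genes. Pecam1, the adhesion molecule CD31 of endothelium, neutrophils and macrophages, was 3.91 and 2.86 against 13.1 and 17.1 FPKM, with 26.6 FPKM after PBS, and the endothelial receptor Kdr was under 2 FPKM in every library. None of these genes passed the limma threshold in the fit to 5 libraries.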
